A study of Homo sapiens with 6 samples.

Results

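Heat shock proteins and chaperonins were examined in microarray data on capped RNA from MOLT-4, an established human cell line of T-cell acute lymphoblastic leukaemia. The genes were taken by the name printed for each probe in the scanner output: every name that begins with HSPA, HSP90 or DNAJ, together with HSPB1, HSPD1, HSPE1, HSPH1, TCP1 and the CCT subunits (CCT6A standing for CCT6). This gave 85 names of the 36328 on the array, and each was represented by its brightest probe over the 6 arrays. The names alone decided which genes were taken, but this set of names was proposed with earlier results of these data known.

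Both groups were MOLT-4 cells, 3 arrays with an empty vector (mock) and 3 labelled as transfected to overexpress NUDT16, a Nudix hydrolase that removes the cap from RNA. RNA carrying an m3G or m7G cap was immunoprecipitated from 20 μg of total RNA per reaction, converted to cDNA, labelled with Cy3 and hybridised to 1-colour Agilent arrays. The comparison therefore asks which transcripts were recovered less or more in the cap-bound fraction of the cells labelled NUDT16 than of mock. The promoter of the vector and whether the arrays came from separate cultures or clones were not given in the sources used here, so p-values measure only the spread between these samples, which may be technical. Total RNA before immunoprecipitation was not analysed here, so less of a transcript in the cells and less of it recovered through its cap cannot be told apart.

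Chaperones bind proteins that are not in their folded state and keep them from aggregating. HSP70 proteins (HSPA genes) hold exposed hydrophobic stretches in a cycle driven by ATP. J-domain proteins (DNAJ genes) deliver clients to HSP70 and stimulate its ATPase, and HSP110 (HSPH1) exchanges its nucleotide. HSP90 acts later, on kinases, steroid receptors and other signalling proteins that are nearly folded. The chaperonins enclose a whole protein in a chamber: HSPD1 with its lid HSPE1 in mitochondria, and the TRiC complex, built from TCP1 and the CCT subunits, in the cytosol, where actin and tubulin are its best known clients. Several of these genes are induced by heat shock factor 1 (HSF1), which binds inverted repeats of the letters GAA, and T-cell leukaemia cells, like other fast-growing cells, express many of them without heat.

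What the arrays measured was the hybridisation of each gene's probe of 60 bases, so the probes of the genes on which the results turn are shown first. They are printed 5′ to 3′, with hg19 positions as the array files give them.

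HSPA8, chr11:122929478-122929537, minus strand: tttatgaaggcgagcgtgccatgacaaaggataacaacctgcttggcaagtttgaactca
HSPA4, chr5:132440067-132440126, plus strand: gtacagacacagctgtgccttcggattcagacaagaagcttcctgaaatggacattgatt
HSP90AB1, chr6:44219211-44219270, plus strand: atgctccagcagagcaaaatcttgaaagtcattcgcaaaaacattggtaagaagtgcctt
CCT7, chr2:73479769-73479828, plus strand: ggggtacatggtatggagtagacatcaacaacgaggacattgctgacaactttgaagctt
DNAJA1, chr9:33036682-33037066, plus strand: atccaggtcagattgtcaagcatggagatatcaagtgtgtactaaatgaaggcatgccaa
DNAJC10, chr2:183623959-183624018, plus strand: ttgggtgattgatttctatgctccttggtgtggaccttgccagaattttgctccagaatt
DNAJC21, chr5:34937517-34937576, plus strand: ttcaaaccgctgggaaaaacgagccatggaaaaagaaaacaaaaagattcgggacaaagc

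The span listed for DNAJA1 is longer than its probe, so that probe's bases are not contiguous in the genome. Which exon or UTR each probe lies in was not determined, because no hg19 annotation was used here. Names that share sequence were compared probe by probe, and no probe was compared with a whole transcript. A match of a pseudogene's probe to another part of its parent's RNA would therefore not be found. Among probes of different chaperone names, a shared run of at least 20 bases was found for 1 pair, HSP90B3P and a second probe of HSP90B1, which matched at 44 of 47 overlapping bases. The differing bases are in capitals, and the comparison is shown because it bears on what a pseudogene's probe can report.

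HSP90B3P: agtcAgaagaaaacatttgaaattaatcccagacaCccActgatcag
HSP90B1, second probe: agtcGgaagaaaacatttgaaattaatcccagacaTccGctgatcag

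Whether RNA of HSP90B1 also binds the HSP90B3P probe was not tested, and the bases of that probe outside the overlap were not compared. The names HSP90AA2, HSP90AA5P, HSP90AB2P, HSP90AB5P, HSP90B3P and DNAJA1P5 belong to pseudogene-like copies of HSP90 and DNAJA1, and their values are given as uncertain for that reason.

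Detection was uneven across the arrays. Between 39.3% and 52.0% of 58717 spots were well above background on 5 arrays, against 14.6% on NUDT16 replicate 2. Of the 85 chaperone genes, 60 to 69 were detected on those 5 arrays and 38 on NUDT16 replicate 2. Same-numbered mock and NUDT16 arrays lay on 1 slide and were scanned together, so each same-numbered pair is also a slide and a scan. Both probes named NUDT16 failed the background call on each of the 6 arrays. A probe named NUDT16P1 was well above background on all 3 NUDT16 arrays and on 0 of the mock arrays, while the other NUDT16P1 probe was on none. Which sequence the vector carried was not given in the sources used here, so these probes neither show nor exclude the overexpression that the labels state, and NUDT16 below means the arrays labelled so. Of 22 T-lymphoblast markers, 16 were detected on all 6 arrays and 0 on none, with a summed log2 level of 4.59 to 4.76 in mock and 4.78 to 4.84 in NUDT16. The B-cell markers MS4A1, PAX5 and BLNK were on no array, CD79A alone of 6 was on all 6, and 0 of 5 myeloid and 0 of 4 erythroid markers were on all 6. Counts on all 6 include NUDT16 replicate 2. On all 3 mock arrays 20 T-lymphoblast, 2 B-cell, 0 myeloid and 2 erythroid markers were detected. The summed log2 level in mock was -2.05 to -1.20 for B-cell, -6.02 to -5.36 for myeloid and -4.61 to -3.40 for erythroid markers.

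A gene was tested where its brightest probe was well above background on all 6 arrays, which held for 5654 genes. Among the chaperones 38 of 85 passed: 5 of 14 HSPA genes, HSPH1, 8 of 10 HSP90 names, HSPB1, both HSPD1 and HSPE1, 6 of 8 TCP1 and CCT genes, 2 of 5 DNAJA names, 4 of 14 DNAJB and 9 of 30 DNAJC. Another 22 were detected on 5 arrays, missing in each case NUDT16 replicate 2, and 10 on 1 to 4 arrays. The remaining 15 were on none. No chaperone was measured on all arrays of one group and on none of the other. Levels below are log2 signals relative to the array's own 75th percentile over the probes detected on all 6 arrays; a level of 0 equals that percentile, and the levels of different probes were ranked only to choose which genes are given array by array.

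Most of the chaperones detected everywhere read lower in NUDT16 than in mock, but no single gene could be called. The limma test found 0 of 38 chaperones changed at a Benjamini-Hochberg adjusted p of 0.05, against 0% of all 5654 genes. Their adjusted p-values ran from 0.955 to 0.984, and 0 had an unadjusted p under 0.05, as against 1 of all genes. The differences, NUDT16 minus mock, ran from -1.48 to 0.80 on the log2 scale, with standard errors of 0.52 to 0.94 and a median of -0.59. That median was -0.96 without NUDT16 replicate 3 and -0.36 without NUDT16 replicate 1. Of the 38, 29 differences were negative and 9 positive. Over all genes tested the median was 0.18, with 2241 negative and 3413 positive. The groups overlapped for every chaperone tested: 0 had all NUDT16 arrays below or all above the mock arrays. Of all genes, 0.195% were lower and 0.371% higher without overlap. In simulated data with the spread of these arrays and 200 of 5654 genes changed, this test recovered 0% of true log2 changes of 2 and 86.5% of 4. With the replicate number as a block it recovered 0% of changes of 1 and 38.5% of 2. A count of 0 called therefore does not show that the chaperones were unchanged.

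**Figure D1:**
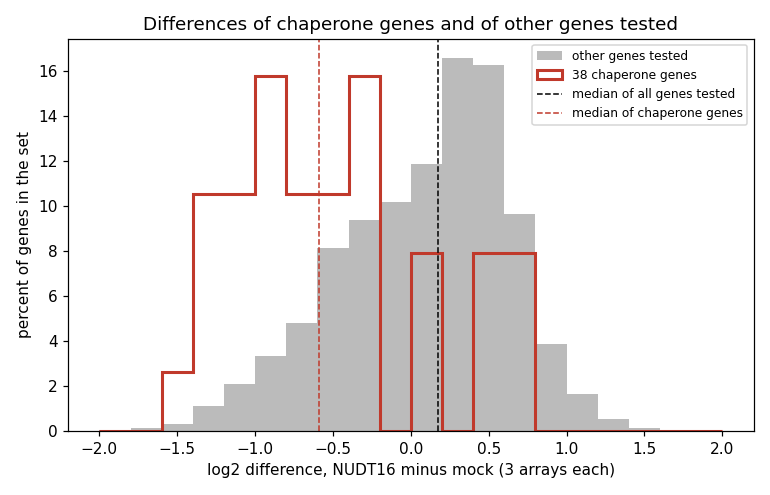
Histogram of the log2 difference NUDT16 minus mock (x axis, means of 3 arrays each) as the percent of genes in each set (y axis), for 38 chaperone genes (red outline) and the other genes tested (grey). Dashed lines mark the medians, -0.59 for the chaperones and 0.18 for all 5654 genes tested.

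Within the same-numbered pairs the direction was more regular. The chaperones' median difference was -0.73 in pair 1, -0.90 in pair 2 and -0.11 in pair 3, where all genes had medians of -0.09, 0.38 and 0.05. Of the 38, 32 were lower in pair 1, 29 in pair 2 and 28 in pair 3, and 24 were lower in all 3 pairs. Of all genes tested, 18.4% were lower in all 3 pairs. The counts rest on each gene's brightest probe. Second probes of CCT4, DNAJC5, HSPE1 and HSP90AB2P, detected on all arrays, differed in sign in a pair. The one of CCT4 read 1.55 in mock and 1.52 in NUDT16 in replicate 3, and the others are given below. Among second probes detected on 5 arrays, those of DNAJB5 and DNAJC10 differed in replicate 3. There DNAJB5 read -3.88 in mock and -4.52 in NUDT16, and DNAJC10 read -4.66 in mock and -4.51 in NUDT16. Higher in all 3 pairs were 4 chaperones, DNAJB2, DNAJB5, DNAJC5 and HSPB1, where 27.8% of all genes were; without scaling of the arrays these counts were 6 lower and 0 higher. With the pair that holds the dim array left out, 27 of 38 were lower in both remaining pairs (35.9% of all genes) and 5 higher (33.6%). With the replicate number as a block, limma again called 0 of the 38 (0% of all genes), with adjusted p-values of 0.473 to 0.894. Under that block 11 chaperones had an unadjusted limma p under 0.05, 28.9% of those tested as against 6.92% of all genes. All 11 were lower, as were 286 of the 391 such genes among all tested.

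**Figure D2:**
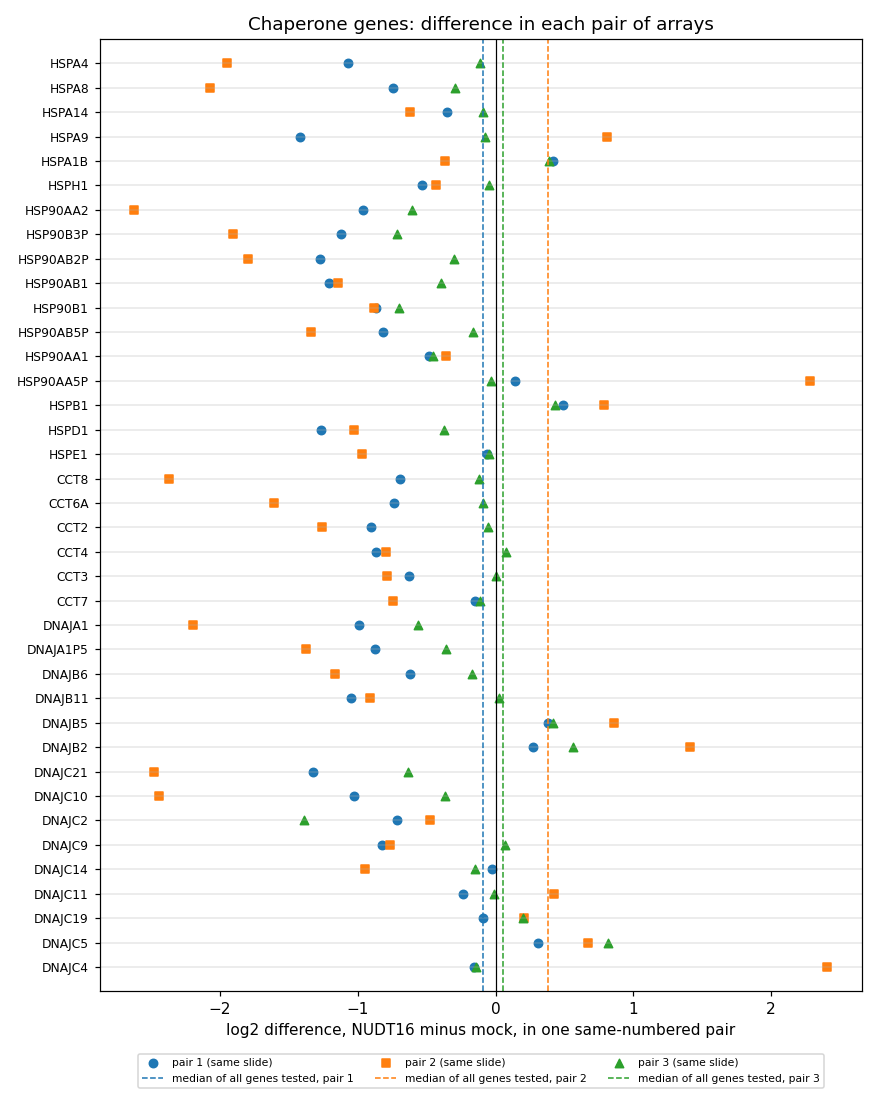
Log2 difference, NUDT16 minus mock (x axis), in each same-numbered pair of arrays for 38 chaperone genes (y axis, ordered by family); circles are pair 1, squares pair 2 and triangles pair 3, and dashed lines are each pair's median over all genes tested. Of these genes, 24 lie left of 0 in all 3 pairs and 4 lie right of it in all 3, and the pair 3 points sit nearest to 0 for most genes.

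Among the HSP70 and HSP110 genes, most read lower with NUDT16. HSPA8, the constitutive cytosolic HSP70 that also uncoats clathrin, had levels of 0.23, 1.22 and 1.57 in mock replicates 1 to 3 and -0.52, -0.86 and 1.27 in NUDT16. The 2 lowest of the 6 values were NUDT16 replicates 1 and 2, and NUDT16 replicate 3 lay above 2 of the 3 mock values. The difference was -1.04 (SE 0.67, n = 3 arrays per group, as for all differences below). Each SE given is from the fit without the replicate block, so it includes the spread between slides. With the block the SE of HSPA8 was 0.41, and the median SE of the chaperones tested was 0.30 against 0.61 without it. HSPA4, an HSP110-type exchange factor despite its name, read -0.70, 0.60 and 0.98 in mock and -1.78, -1.35 and 0.86 in NUDT16. Its difference was -1.05 (SE 0.75), and again only NUDT16 replicate 3 stood among the mock arrays. A second HSPA4 probe gave -1.25. HSPH1 read -1.94, -1.99 and -1.27 in mock against -2.48, -2.42 and -1.32 in NUDT16, a difference of -0.34 (SE 0.56), negative in each pair and at -0.05 in pair 3. HSPA14, which works at the ribosome, differed by -0.35 and was lower in every pair. The mitochondrial HSPA9 differed by -1.42 in pair 1, 0.81 in pair 2 and -0.08 in pair 3. Heat-inducible HSPA1B differed by 0.14, with 0.42, -0.37 and 0.39 in the pairs.

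Of the 8 HSP90 names tested, 7 read lower with NUDT16. HSP90AA1, the inducible cytosolic HSP90, had levels of 2.95, 3.60 and 3.86 in mock and 2.47, 3.24 and 3.40 in NUDT16. The pair differences of this probe were close to each other, -0.49, -0.36 and -0.46, and the group difference was -0.43 (SE 0.55), while the mock arrays alone ran from 2.95 to 3.86. Its 3 probes detected on all arrays gave differences from -1.59 to -0.43, so the size depended on the probe. HSP90AB1, the constitutive cytosolic form, read -0.48, 0.90 and 1.64 in mock and -1.69, -0.24 and 1.25 in NUDT16, with pair differences of -1.21, -1.14 and -0.40 and a group difference of -0.92 (SE 0.79). HSP90B1 (GRP94), the HSP90 of the endoplasmic reticulum, read 1.08, 1.63 and 2.33 in mock and 0.21, 0.75 and 1.63 in NUDT16. The pairs gave -0.87, -0.88 and -0.70, and the difference was -0.82 (SE 0.60). HSP90AB1 and HSP90B1 were picked out with their values known.

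Most HSP90 pseudogene names read lower, as their parent genes did. HSP90AA2 read 0.23, 2.98 and 3.09 in mock and -0.73, 0.36 and 2.49 in NUDT16, a difference of -1.40 (SE 0.92). HSP90B3P read -2.82, -1.11 and -0.68 in mock and -3.94, -3.01 and -1.39 in NUDT16, a difference of -1.25 (SE 0.76). For both, NUDT16 replicate 1 was the lowest array and NUDT16 replicate 3 lay within the mock range. HSP90AB2P differed by -1.12 and HSP90AB5P by -0.77. A second HSP90AB2P probe gave -0.38, and in replicate 2 it read -3.02 in mock and -2.84 in NUDT16. HSP90AA5P went the other way: it read -5.23, -5.12 and -5.74 in mock and -5.09, -2.84 and -5.77 in NUDT16, a difference of 0.80 (SE 0.73) that was -0.068 without NUDT16 replicate 2. Leaving out all 6 pseudogene names, 19 of 32 chaperones were lower in all 3 pairs.

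The small heat shock protein HSPB1 (HSP27), which holds unfolded proteins without ATP, read higher with NUDT16. It read -0.74, -1.78 and -1.83 in mock and -0.26, -0.997 and -1.40 in NUDT16. NUDT16 was higher in each pair, by 0.49, 0.79 and 0.43, and the difference was 0.57 (SE 0.58). Its second probe gave 0.53. Without scaling the difference was -0.43, and the median of all genes was then -0.82.

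In the mitochondrial chaperonin, HSPD1 (HSP60) read 2.64, 3.40 and 4.07 in mock and 1.37, 2.37 and 3.70 in NUDT16, with -1.26, -1.03 and -0.37 in the pairs and a difference of -0.89 (SE 0.68). Its lid HSPE1 (HSP10), transcribed divergently from the same promoter region, did not follow it array by array. HSPE1 read 2.26, 3.71 and 2.23 in mock and 2.20, 2.74 and 2.19 in NUDT16, so mock replicate 2 stood apart and the other 5 arrays lay between 2.19 and 2.74. The difference of -0.36 (SE 0.59) became 0.13 without mock replicate 2. A second HSPE1 probe gave -0.35, and in replicate 1 it read 1.21 in mock and 1.26 in NUDT16.

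All 6 subunits of TRiC that were tested had negative differences, with a median of -0.63, and 4 of them were lower in all 3 pairs. CCT7 was the most even gene in mock, at 2.26, 2.32 and 2.38, and read 2.11, 1.57 and 2.27 in NUDT16. Its highest NUDT16 array lay between the mock values, and its difference was -0.33 (SE 0.52). CCT4 read 2.32, 1.95 and 2.58 in mock and 1.45, 1.16 and 2.66 in NUDT16. NUDT16 replicate 3 was the highest array on this probe, and the difference was -0.53 (SE 0.58). A second CCT4 probe gave -0.60, with mock replicate 3 its highest array. CCT8 had the largest difference of the complex, -1.06 (SE 0.67), with -0.70, -2.37 and -0.12 in the pairs, followed by CCT6A at -0.81, CCT2 at -0.74 and CCT3 at -0.47. In pair 3 the 6 subunits lay between -0.12 and 0.07. TCP1 itself was not detected on NUDT16 replicate 2; on the other arrays it read -3.03, -2.85 and -2.38 in mock and -3.62 and -2.41 in NUDT16 replicates 1 and 3. CCT5 was detected on no array, but it was read by 1 probe only, so absence of its RNA cannot be read from this.

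**Figure D3:**
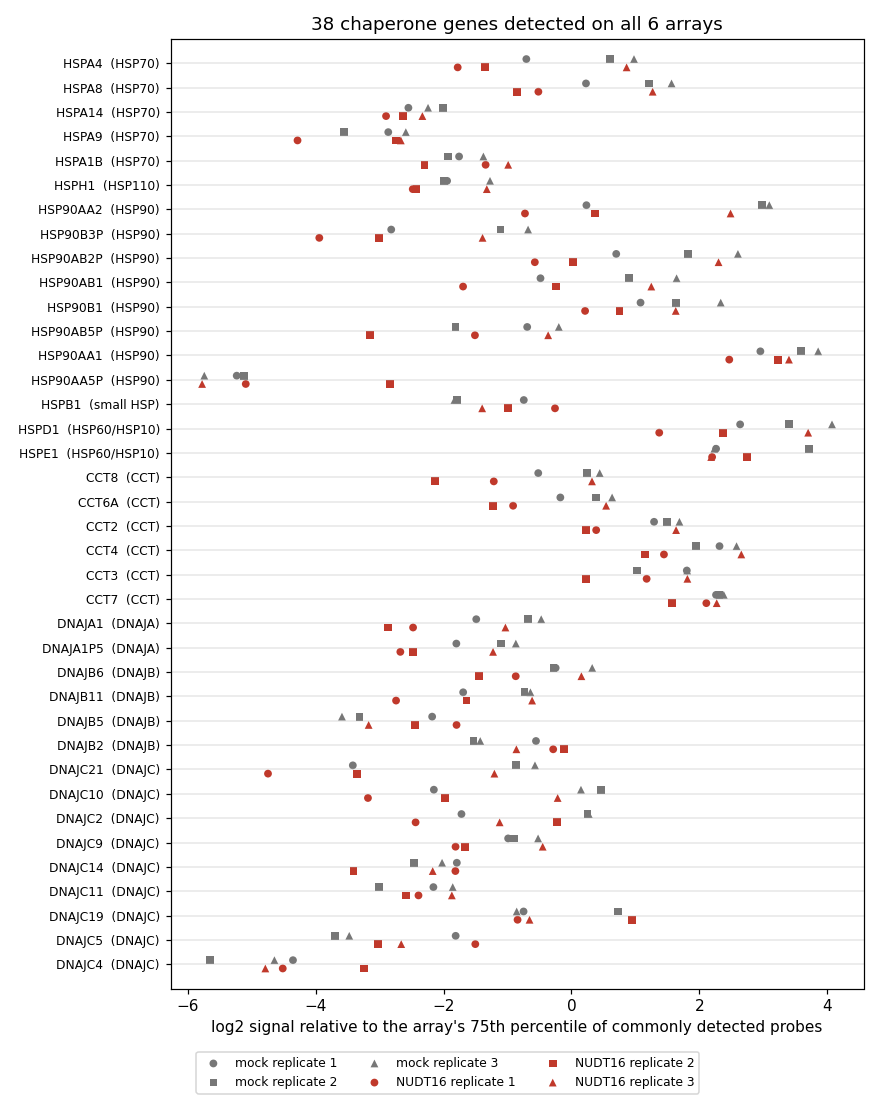
Level of each of 38 chaperone genes on each array (x axis, log2 signal relative to the array's 75th percentile of commonly detected probes; y axis, genes by family), with mock in grey and NUDT16 in red and the symbol giving the replicate number. For HSPA8, HSP90AB1, HSPD1 and DNAJC21 the red triangle of NUDT16 replicate 3 lies among the grey mock points, while NUDT16 replicate 1 or 2 is the lowest array.

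The J-domain proteins were mixed. DNAJA1, a cytosolic partner of HSPA8, read -1.49, -0.67 and -0.47 in mock and -2.48, -2.87 and -1.03 in NUDT16. Only NUDT16 replicate 3 reached the mock range, the pairs gave -0.99, -2.20 and -0.56, and the difference was -1.25 (SE 0.62). DNAJA1P5, the pseudogene name, read -1.80, -1.10 and -0.87 in mock and -2.67, -2.48 and -1.23 in NUDT16, a difference of -0.87 (SE 0.59).

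Among the DNAJB genes, 2 differences were negative and 2 positive. DNAJB6, which suppresses aggregation of polyglutamine proteins, read -0.25, -0.28 and 0.32 in mock and -0.87, -1.44 and 0.16 in NUDT16, a difference of -0.65 (SE 0.58). DNAJB11, of the endoplasmic reticulum, differed by -0.64, with 0.03 in pair 3. DNAJB2, which passes clients to the proteasome, read -0.55, -1.53 and -1.43 in mock and -0.29, -0.12 and -0.86 in NUDT16. It was higher in every pair and differed by 0.75 (SE 0.55), though mock replicate 1 lay above NUDT16 replicate 3. DNAJB5 differed by 0.55 and its brightest probe was also higher in every pair, while a second probe detected on 5 arrays was lower in replicate 3.

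Of 9 DNAJC genes tested, 5 had differences below 0. DNAJC21, a factor of cytosolic ribosome assembly, read -3.42, -0.87 and -0.57 in mock and -4.74, -3.35 and -1.20 in NUDT16. Its difference of -1.48 (SE 0.94) was the most negative of the 38, and the 3 mock arrays alone spanned a wider range than that. DNAJC10, a disulfide reductase of the endoplasmic reticulum, read -2.15, 0.47 and 0.15 in mock and -3.18, -1.97 and -0.22 in NUDT16, a difference of -1.28 (SE 0.85). DNAJC2, which sits on the ribosome with HSPA14, read -1.72, 0.25 and 0.27 in mock and -2.44, -0.22 and -1.12 in NUDT16, a difference of -0.86 (SE 0.73). Its widest gap was in pair 3, at -1.39. DNAJC9, a histone chaperone, differed by -0.50 and DNAJC14 by -0.37.

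The other DNAJC genes tested had differences above 0. DNAJC5, the cysteine string protein of secretory vesicles, read -1.81, -3.70 and -3.47 in mock and -1.50, -3.03 and -2.66 in NUDT16. The difference was 0.60 (SE 0.67), and this probe was higher in every pair. A second DNAJC5 probe detected on all arrays gave 0.34, and in replicate 3 it read -3.14 in mock and -3.17 in NUDT16. DNAJC4 read -4.35, -5.65 and -4.64 in mock and -4.51, -3.24 and -4.79 in NUDT16. Its difference of 0.70 (SE 0.62) rested on pair 2, where the pairs gave -0.16, 2.41 and -0.14. DNAJC19, of the mitochondrial import motor, read -0.75, 0.73 and -0.86 in mock and -0.84, 0.94 and -0.65 in NUDT16, a difference of 0.11 (SE 0.67) whose sign turned without mock replicate 1 or 3 or NUDT16 replicate 2. DNAJC11 differed by 0.06. Without scaling, the differences of HSPB1, DNAJB2, DNAJC5, DNAJC4, DNAJC19 and HSP90AA5P were all negative, as were those of the other chaperones tested.

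Among the 22 chaperones seen on every array except NUDT16 replicate 2, pairs 1 and 3 could still be read. In pair 1 17 were lower, with a median of -0.52 and a range of -1.37 to 1.18. In pair 3 13 were lower, with a median of -0.10 and a range of -0.69 to 0.63. The same 13 were lower in both pairs and 5 were higher in both. The matching shares over all genes missing only on NUDT16 replicate 2 are not given here, so these counts cannot be set against other genes. These genes are DNAJA2, DNAJA3, DNAJB1, DNAJB4, DNAJB9, DNAJB12, DNAJB14, DNAJC1, DNAJC3, DNAJC3-AS1, DNAJC7, DNAJC8, DNAJC13, DNAJC17, DNAJC18, DNAJC24, DNAJC27, DNAJC30, HSPA5, HSPA6, HSPA13 and TCP1.

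Of these genes and those seen on fewer arrays, a few that are known for induction by heat or by stress of the endoplasmic reticulum were singled out with their values known. Of other heat-inducible chaperones, HSP90AA1, HSPH1, DNAJA1 and HSPD1 are given above as lower in all 3 pairs. Not all went that way: HSPB1 was higher in each pair, by 0.49, 0.79 and 0.43, and HSPA1B had 0.42, -0.37 and 0.39. HSPA6, which is nearly silent without stress, read -5.62, -5.94 and -5.76 in mock and -4.44 and -5.13 in NUDT16 replicates 1 and 3, with both of these NUDT16 values above all 3 mock values. HSPA1A was above background in mock replicate 1 (-7.09) and in NUDT16 replicates 1 and 3 (-6.16 and -6.61) only. DNAJB1, the J-protein most tied to the heat shock response, read -2.80, -3.41 and -3.18 in mock and -2.57 and -2.82 in NUDT16 replicates 1 and 3, higher by 0.23 and 0.36 in those pairs. By contrast HSPA5 (BiP), the HSP70 of the endoplasmic reticulum, read -3.20, -4.39 and -3.14 in mock and -3.90 and -2.56, and its pairs had opposite signs, -0.70 and 0.58. DNAJC3, its partner, was lower in both, at -0.88 and -0.69.

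The chaperones seen on 1 to 4 arrays were DNAJB13, DNAJC6, DNAJC16, DNAJC22, DNAJC25, DNAJC27-AS1, DNAJC28, HSPA1A, HSPA4L and HSPA12B. Those well above background on none were CCT5, DNAJA4, DNAJB3, DNAJB7, DNAJB8, DNAJB8-AS1, DNAJC5B, DNAJC5G, DNAJC12, DNAJC15, HSP90AB4P, HSP90AB6P, HSPA1L, HSPA2 and HSPA12A. Several of the second set, among them HSPA1L, HSPA2, DNAJB3 and DNAJB8, are known chiefly from testis. An antisense name (DNAJC3-AS1, DNAJC27-AS1, DNAJB8-AS1) was kept because the rule takes every name by its start.

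Genes that work with the chaperones were read from lists made with earlier results of these data known. HSF1 read 1.36, 1.81 and 1.38 in mock and 1.46, 3.66 and 1.17 in NUDT16, so that NUDT16 replicate 2 stood apart and the difference was 0.58 (SE 0.68; limma adjusted p 0.955). HSF2 was missing on that array and read -2.54, -3.40 and -2.52 in mock against -3.13 and -2.30. Of 35 co-chaperones 21 were tested, with a median difference of -0.11, 11 negative and 10 positive. The lowest were ST13 (HIP), which steadies HSP70 on its client, at -1.23, TTC1 at -1.19 and NUDCD2 at -0.81; the highest were SGTA at 0.62, the ubiquitin ligase STUB1 (CHIP) at 0.49 and PIH1D1 at 0.44. Prefoldin subunits, phosducin-like proteins and tubulin cofactors (10 of 13 tested) had a median of -0.17, folding enzymes of the endoplasmic reticulum (12 of 12) 0.05, and mitochondrial proteases (4 of 6) 0.30. The limma test called 0 genes in each of these lists, and under the replicate block 2 of 21 co-chaperones and 3 of 12 folding enzymes had an unadjusted p under 0.05, where 6.92% of all genes did.

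No chaperone was called between replicate numbers either. An F test of the number in limma, with the group in the model, called 0 of 38 chaperones and 0% of all genes, with adjusted p-values of 0.057 to 0.927 for the chaperones. Unadjusted, 18 of 38 (47.4%) and 2636 of all genes (46.6%) had a p under 0.05. In simulated data where only a small share of genes changed, the F test recovered 0% of true log2 changes of 2 and 67.5% of 4. The share recovered after adjustment depends on how many genes change, so these rates need not hold for the arrays. Replicate 3 minus replicate 1, averaged over both groups, had a median of 0.91 for the chaperones with 30 of 38 above 0, against -0.015 for all genes with 2795 of 5654 above 0. DNAJC21 differed by 3.19, HSP90AA2 by 3.04, DNAJC10 by 2.63 and HSP90AB1 by 2.54. DNAJC5 differed by -1.41, DNAJB5 by -1.39 and HSPB1 by -1.11. Other settings called 0 to 34 of the chaperones in this test (34 without mock replicate 2, and 34 without NUDT16 replicate 2); where any were called, 25.2% to 86.2% of all genes were too.

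Chaperones that read higher in replicate 3 than in replicate 1 mostly read lower with NUDT16 in replicate 2. The first measure uses 4 arrays and the second the other 2, so they share no array, only the filter and the set of probes used for scaling. Across the 38 chaperones Pearson's r between them was -0.77 (Spearman's rho -0.76), and across all 5654 genes -0.42 (rho -0.41); genes share arrays and are not independent replicates. Of 30 chaperones above in replicate 3, 27 (90%) were lower in pair 2, where 56.3% of all such genes were. Of the 8 below, 6 were higher in pair 2, as were 2280 of the 2859 such genes among all tested. The part of this between-number difference in the group difference was not tested.

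**Figure D4:**
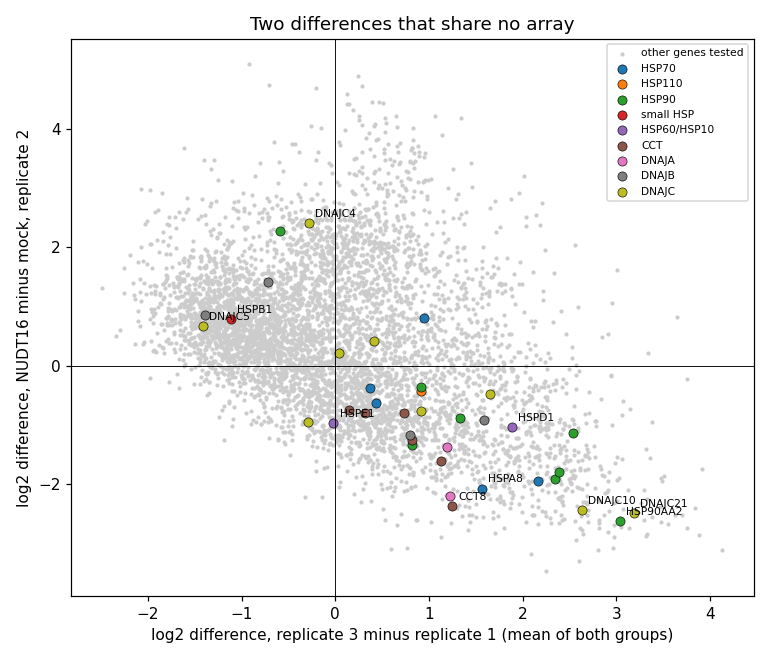
Each point is a gene: log2 difference replicate 3 minus replicate 1, mean of both groups (x axis), against the log2 difference NUDT16 minus mock in replicate 2 (y axis), with 38 chaperones coloured by family and the other genes tested in grey. HSP90AA2, DNAJC10 and DNAJC21 lie at the lower right, and HSPB1 and DNAJC5 at the upper left.

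The base composition of the probes was set beside the differences. Probe GC had a median of 45% in the chaperones (35% to 55%) and of 45% in all genes (25% to 91.7%), and its correlation with the difference was 0.25 over the chaperones and 0.39 over all genes. After GC was regressed out of each array, an alternative added after the data were seen, the chaperones' median was -0.53, against 0.12 for all genes, and 20 were lower in all 3 pairs, as were 17.7% of all genes.

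Promoters were searched for heat shock elements, since several of the genes that read lower are known targets of HSF1. RefSeq promoters of GRCh38.p14 were matched for 68 of the 85 names. The letters GAANNTTCNNGAA, or TTCNNGAANNTTC, were looked for on both strands in the 250 bases before the start; these 3-unit elements contain the 2-unit ones, GAANNTTC or TTCNNGAA. The 3-unit element was in 6 of 68 chaperone promoters (8.82%) and in 152 of 27305 promoters (0.557%), and the 2-unit element in 19 (27.9%) and 14.0%. One match for each of the 6 genes is printed with its element in capitals.

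HSPA8, chr11:123062171-123062199, minus strand: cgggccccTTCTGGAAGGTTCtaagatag
HSP90AA1, chr14:102087112-102087140, minus strand: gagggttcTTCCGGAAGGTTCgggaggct
HSP90AB1, chr6:44247823-44247851, plus strand: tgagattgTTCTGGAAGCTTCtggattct
HSPD1, chr2:197500060-197500088, minus strand: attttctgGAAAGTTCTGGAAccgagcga
DNAJB6, chr7:157336865-157336893, plus strand: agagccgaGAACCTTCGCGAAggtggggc
HSPA6, chr1:161524458-161524486, plus strand: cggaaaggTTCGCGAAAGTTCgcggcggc

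The first 5 of these were detected on all arrays and their median difference was -0.89. The 25 tested chaperones with a matched promoter but no such element had -0.37. Those 25 include DNAJA1, HSPA1B and HSPB1, named above as heat-inducible, so the split is by these letters and not by heat induction. With the 2-unit element the median was -0.74 over 9 tested chaperones, HSPB1 among them, against -0.37 over those without it. HSPA6, the 6th, read higher in pairs 1 and 3. The endoplasmic reticulum stress element, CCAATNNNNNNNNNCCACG or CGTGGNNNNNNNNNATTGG, was in the promoters of HSP90B1 and HSPA5 and in 25 of all promoters (0.0916%). These matches describe letters in a window and no binding was measured here. The same split over all genes is not given, and a link between the elements and the differences was not tested.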

How the data were processed

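Capped RNA of 3 mock and 3 NUDT16 MOLT-4 arrays was measured. Feature Extraction 10.7.3.1 made the deposited processed intensity of each spot (background-subtracted, linear scale), per the file headers; the array design is 039494 on hg19. The deposited value table holds log2 values of the same arrays, whose rank order equals that of median signal minus background (rho = 1 on each array) and whose centring and normalization are not given in the sources used here; its medians were 6.06 to 6.18. limma is named in the submitters' processing notes.

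Control and outlier spots were left out (309 to 492 outlier spots per array), and spots of one probe were averaged. No spot was saturated. A probe counted as well above background where over 50% of its usable spots were. Intensity was taken to log2 and each array's 75th percentile over the 6582 probes well above background on all 6 arrays was subtracted; that percentile was 2701 to 7717 on 5 arrays and 223.5 on NUDT16 replicate 2. The percentile over all spots was not used, because on that array it lay at background. limma 3.58.1 (R 4.3.3) was fitted over all 5654 genes with 1 probe each, two-sided, with Benjamini-Hochberg adjustment; scripts were tested on simulated data. Only 6 arrays limit the precision. The members and lists were chosen with earlier results of these data known. Genes given array by array were the 2 highest of each family and the 5 largest differences each way, and others where stated; no gene met the rule's other conditions.

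Same-numbered arrays deviated together (r of deviations from the group means 0.85, 0.43 and 0.70 over 5654 genes, against -0.58 to 0.06 for other combinations) and shared a slide and a scan, so the number pairs them. Alternatives covered scaling, background, filter, probe choice, variance model, each array left out and the block. Gene names are those of the array; 76 of 85 matched RefSeq by accession and none had another symbol.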

Additional observations from a re-analysis of the deposited data

How the results depend on the processing

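The limma comparison of NUDT16 with mock called 0 chaperones under every alternative run, with at most 1 gene of all called (looser filter, which asks for detection throughout either group). Of 440 values of the 22 named chaperones over 20 alternatives each, 428 kept their sign and 12 turned. The replicate block on all arrays and the intensity trend with robust prior leave each difference as it was, so they could not turn a sign. The median difference of -0.59 was negative under each alternative. It was -1.58 without scaling, where all genes had -0.82. Subtracting 1 value per array shifts every gene's difference alike, so the gap to all genes (-0.76) was the same by construction. The chaperones' median was -0.15 without a filter, where all genes had 0.68. Leaving out 1 array, it ran from -0.96 without NUDT16 replicate 3 to -0.36 without NUDT16 replicate 1. With the replicate block it was -0.59 by construction, with 0 called. With the block on replicates 1 and 3 alone it was -0.41, against -0.05 for all genes. The block changed no other call.

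The count called between replicate numbers, 0 in the reported fit and under the alternatives not named here, was 11 with the all-spot percentile, 15 with quantile normalization, 13 with the authors' value table, 21 with the looser filter, 15 with an intensity trend and robust prior, 27 with array weights and 12 with probe GC removed. It ran from 0 to 34 with 1 array left out, 34 without mock replicate 2 and without NUDT16 replicate 2. The cause was not tested. Chaperones lower in all 3 pairs numbered 6 of 38 without scaling (3.96% of all genes) and 20 to 24 of 38 under the other scalings, backgrounds, probe choice and GC removal (13.9% to 18.4%). They numbered 33 of 60 with the looser filter (25.8%), 33 of 85 with no filter (9.79%), 19 of 32 without pseudogene names (18.4%) and 24 of 38 when each pair was centred on its all-gene median (21.9% of all genes) with 4 above (22.2%).

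Signs that turned without scaling were HSPB1 at -0.43, DNAJB2 at -0.25, DNAJC19 at -0.89, HSP90AA5P at -0.20, DNAJC4 at -0.29 and DNAJC5 at -0.40. DNAJC4 was -0.15 with the replicate block on replicates 1 and 3 alone. DNAJC19 was -0.12 without mock replicate 1, -0.18 without mock replicate 3 and -0.46 without NUDT16 replicate 2. With 1 array left out, HSPE1 ran from -0.61 to 0.13 (without mock replicate 2), DNAJC19 from -0.46 to 0.62 and HSP90AA5P from -0.068 (without NUDT16 replicate 2) to 1.40. The low signal of NUDT16 replicate 2 limits what can be seen of the 47 chaperones outside the test.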
